A study of Mus musculus with 36 samples.

Results

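The genes described here are Nos2, Retnla and Chil3, 3 of the 20720 genes listed in single-cell tables of mouse hearts. Each was chosen by its symbol, and the values below come from wells with at least 1000 unique molecular identifiers (UMIs, tags that count each captured RNA molecule once). The hearts came from male C57BL/6 mice of 8 weeks, and all cells were taken from the left ventricle, which the labels give as infarcted region for every plate, sham included. The 36 plates fell into 6 groups. Ischaemia-reperfusion (IR), a ligation of the coronary artery lasting 1 h and then released, was sampled on 9 plates at day 1, on 7 plates at day 3 and on 3 plates at day 14. Myocardial infarction (MI), in which the ligation was permanent, was sampled at day 3 (5 plates). Sham surgery without ligation was sampled at day 1 (4 plates) and day 14 (8 tables). The labels name no transgene, deleted gene or drug. The study's methods describe sham and MI hearts taken on the same day after surgery, whereas the labels put the sham plates at other days than MI, and the groups here follow the labels. Which mouse each plate came from was not given. The MI plates outnumber the mice that the methods give for a condition, and so at least some of these plates hold cells of the same mouse. SDs and p-values over plates, which count each as a sample, are then too small. The same may hold for the other groups.

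Macrophages respond to injury with different programs. Inducible nitric oxide synthase, encoded by Nos2, turns the amino acid arginine into nitric oxide and is a hallmark of classical activation by bacterial products and interferon. Retnla (the secreted protein resistin-like alpha, also called Fizz1) and Chil3 (the chitinase-like protein Ym1) are textbook genes of alternative activation in mouse macrophages, which interleukin-4 and interleukin-13 set off through the transcription factor STAT6. Chil3 is also known from neutrophils and their precursors in the bone marrow. In the infarcted heart, macrophages from circulating monocytes join those resident in the tissue.

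Each well received 1 sorted cell. In all, 3146 of 13824 wells reached 1000 UMIs. Total UMIs per plate ranged from 176614 to 5551870, and the median well of the MI plates was deeper (13120 UMIs) than that of the other groups (2217 to 3230 UMIs). The MI plates also carry a protocol label of their own, so library preparation and MI cannot be told apart. The IR day 3 plate numbered 2 held 0 such wells. Sham day 14 plates 2 and 7 were 2 tables of the same plate and were counted as 1 sample. In addition, 47 wells held a copy of another well's counts, 20 of them with at least 1000 UMIs, and were left out. Cells were clustered without these genes. Of the 3091 wells that entered the pooled values, 620 were macrophage-like, 156 neutrophil-like and 359 endothelial-like. All 10 macrophage markers were higher in the macrophage-like wells than in the other wells, among them Cd68 (966 against 35.1 UMIs per 1000000, CPM), C1qb (2672 against 135 CPM) and Csf1r (729 against 49.6 CPM). The same markers had served to name these wells, so this describes the class and does not test it.

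The genes lie on different chromosomes of the GRCm38.p6 assembly. Nos2 spans chr11:78920787-78960226, Retnla chr16:48842609-48844461 and Chil3 chr3:106147554-106167564. Chil3 stands in the tables under its older symbol Chi3l3. Its close relative Chil4 and the Retnla relative Retnlg are separate entries, and reads of such related genes may have been assigned to either. RefSeq promoter sequences were at hand for 2 of the 3 genes, the secreted products Retnla and Chil3, and are shown because both genes belong to the STAT6 program while only Chil3 was abundant here. The 250 bases before each start site are given 5′ to 3′ on the strand of the gene, for Retnla chr16:48842359-48842608 on the plus strand and for Chil3 chr3:106167565-106167814 on the minus strand. Capitals mark matches to 3 motifs, searched on both strands: the STAT6 motif (TTC and GAA with 4 bases of any kind between them), the C/EBP motif TTNNGCAA and the TATA box TATAAA.
Retnla: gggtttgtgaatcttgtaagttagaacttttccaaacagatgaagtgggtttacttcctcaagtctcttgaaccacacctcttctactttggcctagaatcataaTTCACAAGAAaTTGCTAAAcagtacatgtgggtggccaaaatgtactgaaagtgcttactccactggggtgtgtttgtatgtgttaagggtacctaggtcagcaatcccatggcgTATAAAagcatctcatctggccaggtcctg
Chil3: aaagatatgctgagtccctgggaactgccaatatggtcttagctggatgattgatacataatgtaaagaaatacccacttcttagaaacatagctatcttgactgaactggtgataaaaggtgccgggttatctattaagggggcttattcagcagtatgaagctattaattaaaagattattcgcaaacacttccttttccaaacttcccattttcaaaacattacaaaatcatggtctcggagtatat
The Retnla promoter held the STAT6 motif from 145 to 136 bases before the start, the C/EBP motif on the other strand from 134 to 127 and the TATA box from 30 to 25. None of the 3 strings occurred in the Chil3 window, and other spacings between TTC and GAA were not searched. Among 32851 promoters of the same length, 5.85% held the STAT6 motif, 9.56% the C/EBP motif and 12.4% the TATA box.

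The 3 genes differed widely in how often they were seen. Wells of at least 1000 UMIs held 7570 UMIs of Chil3, but 331 of Nos2 and 33 of Retnla. The single richest well held 196 UMIs of Chil3, 18 of Nos2 and 8 of Retnla. Of the 7559 Chil3, 330 Nos2 and 33 Retnla UMIs left without copied wells and the second table of 1 plate, macrophage-like wells contributed 80.8% of the Chil3 UMIs and 63.6% of the Retnla UMIs, and neutrophil-like wells 12.7% and 24.2%. Nos2 had another distribution, with 67.0% of its UMIs in endothelial-like wells and 20.6% in macrophage-like wells. Its endothelial-like share was 96.0% at sham day 1 (24 of 25 UMIs) and 73.4% at MI day 3 (102 of 139), but 48.4% at IR day 1 (44 of 91), where macrophage-like wells gave 42.9%. The balance of Chil3 between the 2 myeloid classes was not the same in the 2 groups that held most of it. At IR day 1, 46.1% of its UMIs came from macrophage-like and 45.1% from neutrophil-like wells, while at MI day 3 the shares were 92.95% and 1.59%. The heat map of levels by cell class and group shows this division of the genes among the classes.

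**Figure D1:**
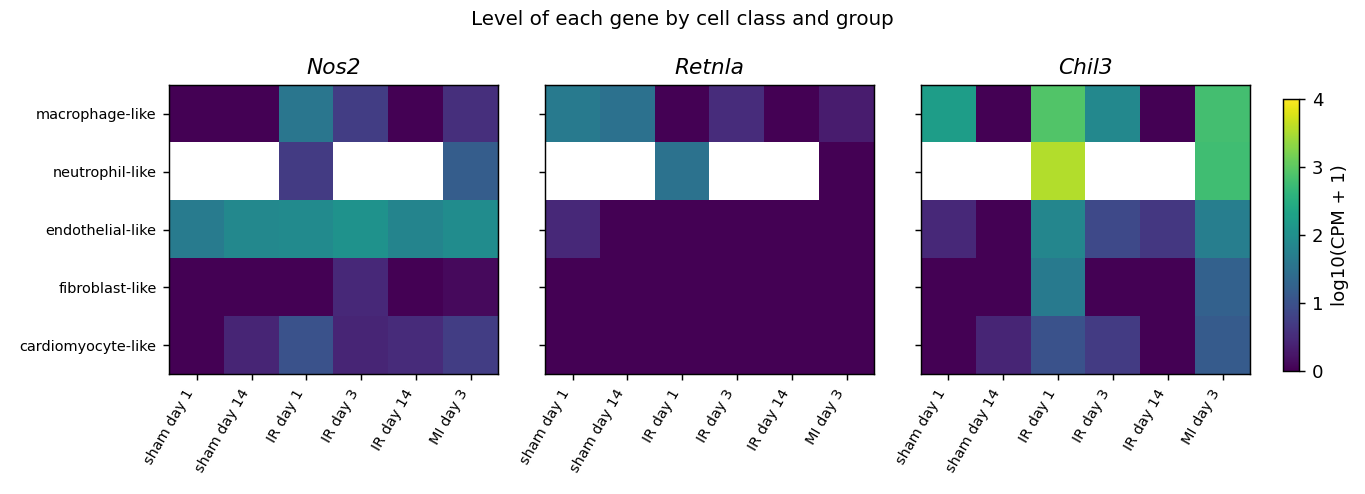
Level of Nos2, Retnla and Chil3 by cell class (rows) and group (columns), as log10(CPM + 1) of the UMIs pooled over wells of at least 1000 UMIs, with white fields where fewer than 5 wells were present. Chil3 is highest in the neutrophil-like field of IR day 1, followed by the macrophage-like fields of IR day 1 and MI day 3, and Nos2 is spread over the endothelial-like fields of all groups.

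Chil3 was abundant in macrophage-like wells 1 day after IR and 3 days after MI, and low 3 days after IR. At IR day 1 its levels were 351, 595, 630, 406, 740, 458, 2148, 1333 and 288 CPM in plates 1 to 9. IR day 3 gave 35.2, 0, 87.7, 73.2, 61.6 and 47.2 CPM (plates 1 and 3 to 7), and MI day 3 601, 796, 883, 458 and 392 CPM. Every plate of IR day 1 and of MI day 3 was above every plate of IR day 3, and the MI plates lay within the range of IR day 1. At sham day 1, 3 plates had at least 5 macrophage-like wells, and they had 76.2, 353 and 29.4 CPM, so that 1 of them lay inside the range of IR day 1 and the other two within that of IR day 3. Among the 7 macrophage-like wells of sham day 14 none held a Chil3 UMI, which allows up to 88.6 CPM, and the 6 wells of IR day 14 held none either, which allows up to 71.6 CPM.

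**Figure D2:**
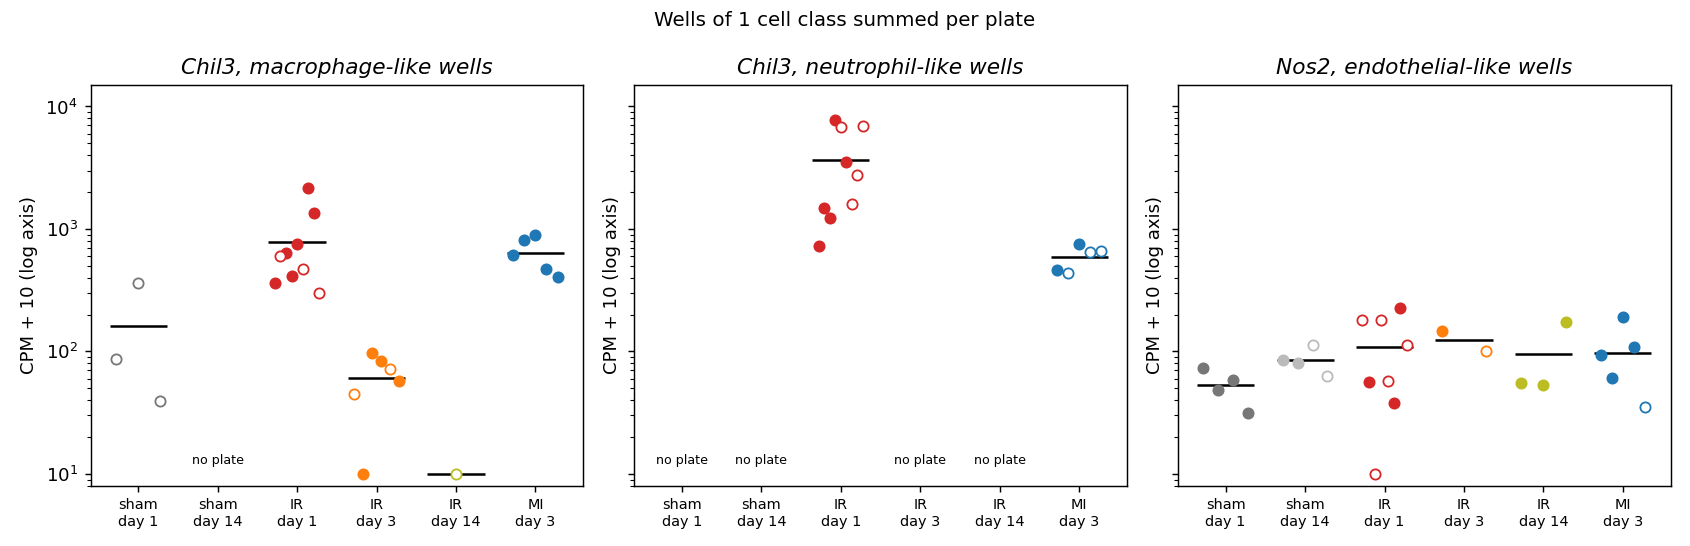
Level per plate of Chil3 in macrophage-like and in neutrophil-like wells and of Nos2 in endothelial-like wells, as CPM + 10 on a log axis, by group; filled points are plates with at least 10 such wells, open points those with 5 to 9, and black lines the mean CPM of a group. Every IR day 1 and MI plate lies above every IR day 3 plate for Chil3 in macrophage-like wells, IR day 1 stands above MI in neutrophil-like wells except for 1 plate, and for Nos2 IR day 1 and MI day 3 overlap both sham groups.

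The comparison of macrophage-like wells was fitted across 5707 genes on plates with at least 10 such wells (IR day 1 with 6 plates, IR day 3 with 4 and MI day 3 with 5). On these plates mean Chil3 was 935 CPM ± 690 (SD, n = 6) at IR day 1, 52.0 CPM ± 38.5 (SD, n = 4) at IR day 3 and 626 CPM ± 211 (SD, n = 5) at MI day 3. From IR day 1 to IR day 3 Chil3 fell by 3.86 on the log2 scale (SE 0.54, adjusted p = 4.16e-05, edgeR quasi-likelihood test with Benjamini-Hochberg adjustment over all genes). Between both injuries at day 3, Chil3 was higher after MI by 3.24 on the log2 scale (SE 0.53, adjusted p = 0.000427, same test). In the first comparison 24.5% of all genes tested were called, 13.6% in the lower direction. In the second 12.8% were called, 7.39% in the higher and 5.45% in the lower direction. Of the 3 genes, Chil3 passed the filter on low counts in this fit. Nos2 and Retnla did not pass it and were not tested.

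The lower limit of 10 wells left out the sham groups, so a second fit with plates of at least 5 macrophage-like wells, chosen after the data had been seen, compared IR day 1 (9 plates) with sham day 1 (3 plates). There 2.75% of 5133 genes were called, 0.604% in the higher and 2.14% in the lower direction. Chil3 was 2.26 higher at IR day 1 than at sham day 1 on the log2 scale (SE 0.62, adjusted p = 0.0396, edgeR). Different clusters held most of these wells in the 2 groups, with 14 of 22 sham day 1 wells in a cluster led by Gpnmb (cluster 3) and 92 of 109 IR day 1 wells in one led by Ccr2 (cluster 2). Without sham day 1 plate 3, the highest of its group, the value was 3.81 (adjusted p = 0.0218). The call ended without sham day 1 plate 2 (1.94, adjusted p = 0.157), without sham day 1 plate 4 (1.99, adjusted p = 0.243) and without IR day 1 plate 8 (2.16, adjusted p = 0.0546). It also ended in wells of at least 2000 UMIs (2.22, adjusted p = 0.0532), without the deepest 5% of wells (1.88, adjusted p = 0.101) and with the replicate block (2.12, adjusted p = 0.0772).

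The share of macrophage-like wells that held a Chil3 UMI was 57.8% at IR day 1 (63 of 109 wells), 25.1% at IR day 3 (49 of 195), 77.9% at MI day 3 (219 of 281) and 18.2% at sham day 1 (4 of 22). Because median depth ranged from 3530 UMIs (sham day 14) to 22838 UMIs (MI day 3), each well was also thinned to 1000 UMIs. The expected share then was 31.4% at IR day 1, 5.35% at IR day 3, 34.7% at MI day 3 and 7.72% at sham day 1. Cardiomyocyte-like wells, which should lack Chil3, gave a background on the same thinned scale of 0.558% at IR day 1 (1 of 35 wells, median 1994 UMIs), 0.665% at IR day 3 (5 of 281 wells, median 2504 UMIs) and 3.00% at MI day 3 (3 of 19 wells, median 8820 UMIs). Endothelial-like wells gave 2.51%, 0.502% and 5.73% in the same groups, and fibroblast-like wells 2.69%, 0% and 2.77%. The thinned share in macrophage-like wells was above that of these 3 classes in these 3 groups. Mural-like wells gave 3.19% at IR day 1 (5 wells), 4.958% at IR day 3 (4 wells) and 4.975% at MI day 3 (3 wells). Wells of no named class gave 14.2% at IR day 1 and 14.4% at MI day 3.

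Within a group, Chil3 was unevenly spread over the cells. At IR day 1 the median macrophage-like well had 1.77 Chil3 UMIs per 10000 (quartiles 0 and 7.86, highest 89.4), and at MI day 3 the median was 2.82 (quartiles 0.31 and 8.51, highest 70.1). At IR day 3 the median and lower quartile were 0, the upper quartile was 0.11 and the highest well reached 5.73. The top 10% of wells held 63.5% of the Chil3 UMIs at IR day 1, 53.7% at MI day 3 and 74.5% at IR day 3. At sham day 1, 3 of the 22 wells held 96.3% of them.

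Clustering had placed the macrophage-like wells in 3 clusters, and different clusters held most of them at IR day 1 and MI day 3 (cluster 2) and at IR day 3 and sham day 1 (cluster 3). Cluster 2 was led by Ccr2, the receptor by which monocytes are recruited, the antigen presentation gene Cd74 and the chemokine Cxcl3. Cluster 3 was led by Gpnmb, Cbr2 and the folate receptor Folr2, and the small cluster 15 by Saa3, Ltc4s and Fcna. In cluster 2, pooled Chil3 was 349 CPM at sham day 1 (4 of 8 wells with a UMI), 933 CPM at IR day 1 (58 of 92), 89.2 CPM at IR day 3 (4 of 22) and 767 CPM at MI day 3 (188 of 226). In cluster 3 it was 0 at sham day 1 (14 wells, which allows up to 35.0 CPM), 152 CPM at IR day 1 (5 of 17), 71.7 CPM at IR day 3 (45 of 171) and 53.2 CPM at MI day 3 (14 of 31). Cluster 15, almost wholly from MI, had 297 CPM there with Chil3 in 17 of 24 wells. Within cluster 2 the 2 plates of sham day 1 with at least 3 such wells stood at 134 and 646 CPM, so that 1 of them was above the median of IR day 1. The plates of IR day 3 stood at 0, 0 and 126 CPM, those of IR day 1 at 288 to 2148 CPM (median 595, n = 9) and those of MI day 3 at 472 to 1016 CPM (median 685, n = 5), counting plates with at least 3 such wells. IR day 1 and MI day 3 were above IR day 3 in cluster 2 without overlap, whereas in cluster 3 the MI plates (8.40 to 155 CPM, median 32.5, n = 5) overlapped those of IR day 3 (0 to 84.9 CPM, median 56.5, n = 6).

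**Figure D3:**
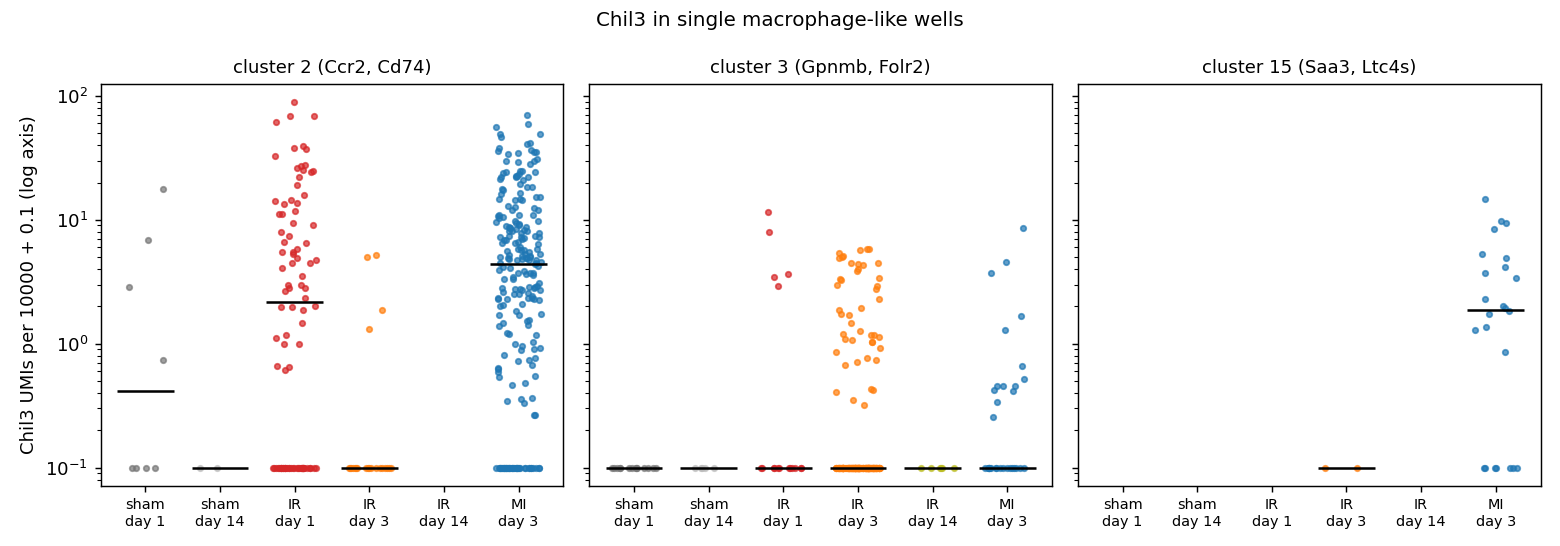
Chil3 in single macrophage-like wells by group and cluster, as UMIs per 10000 UMIs + 0.1 on a log axis, with lines at the medians. Wells at IR day 3 are mostly in cluster 3, where most hold no Chil3 and the highest has 5.73 per 10000, while those of IR day 1 and MI day 3 are mostly in cluster 2 and spread from none to 89.4 and 70.1 per 10000.

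Markers of other cells also differed between the groups in the macrophage-like wells, on plates with at least 5 such wells. The 8 neutrophil markers summed to 125 to 2319 CPM per plate at IR day 1, 70.5 to 238 CPM at IR day 3 (1 marker at 0), 546 to 1103 CPM at MI day 3 and 168 to 610 CPM at sham day 1 (3 markers at 0). The 6 markers of monocytes summed to 5257 to 8733 CPM at IR day 1, 1243 to 2819 CPM at IR day 3, 3056 to 3744 CPM at MI day 3 and 2028 to 7289 CPM at sham day 1 (2 at 0). Their median was 3425 CPM at sham day 1 and 3159 CPM at MI day 3, and the sham plates spanned the MI range. The 8 cardiomyocyte markers ran the other way, with 28.6 to 563 CPM at IR day 1, 529 to 2544 CPM at IR day 3, 129 to 646 CPM at MI day 3 and 899.7 to 1628 CPM at sham day 1. The 8 endothelial markers had medians of 458 CPM at IR day 1, 1085 CPM at IR day 3, 549 CPM at MI day 3 and 1296 CPM at sham day 1 (1 marker at 0 at IR day 1 and at sham day 1). The 8 fibroblast markers had medians of 372 CPM at IR day 1 (1 at 0), 1170 CPM at IR day 3, 1363 CPM at MI day 3 and 441 CPM at sham day 1 (3 at 0). Cluster 2 and cluster 15, the clusters with more Chil3 at MI day 3, had 908 and 900 CPM of the neutrophil markers in all, and cluster 3 had 156 CPM. Neutrophil-like wells held Chil3 at 3409 CPM at IR day 1, above the macrophage-like level of 824 CPM, and at 600.1 CPM at MI day 3, where macrophage-like wells had 647 CPM. What part the cells of these markers have in the Chil3 result, or in the gene lists below, was not tested.

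Chil3 was also carried by neutrophil-like wells, and there it differed between IR day 1 and MI day 3, which are apart in injury, time and library protocol. At IR day 1 these wells held 723, 1483, 1221, 7761, 6759, 3506, 1580, 2751 and 6917 CPM of Chil3 in plates 1 to 9. In the MI plates they held 455, 429, 738, 634 and 646 CPM. Only IR day 1 plate 1 lay inside the range of MI. On the log2(CPM + 10) scale the MI mean was 9.17 ± 0.34 (SD, n = 5) and the IR day 1 mean 11.40 ± 1.24 (SD, n = 9), a difference of -2.22 with p = 0.0040 in a two-sided exact permutation test over 2002 arrangements of the plates and 0.0160 after adjustment over the 4 tests run (smallest possible p 0.0005). The permutation tests were chosen after the data had been seen. The share of neutrophil-like wells with Chil3 was 73.6% at IR day 1 (78 of 106), or 64.8% thinned to 1000 UMIs, and 44.9% at MI day 3 (22 of 49), or 28.7% thinned. The median neutrophil-like well had 16.9 Chil3 UMIs per 10000 at IR day 1 and 0 at MI day 3, with the highest wells at 246 and 45.7. Median depth was 1925 and 2224 UMIs in these wells.

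Nos2, the source of inducible nitric oxide, was found mainly in endothelial-like wells and in every group. Mean Nos2 over the plates with at least 5 endothelial-like wells was 42.8 CPM ± 17.5 (SD, n = 4) at sham day 1 and 74.99 CPM ± 20.5 (SD, n = 4) at sham day 14. It was 97.9 CPM ± 79.7 (SD, n = 8) at IR day 1, 84.8 CPM ± 69.9 (SD, n = 3) at IR day 14 and 88.0 CPM ± 59.9 (SD, n = 5) at MI day 3, while the 2 such plates of IR day 3 stood at 136 and 90.7 CPM. The single plates were 63.1, 38.3, 48.3 and 21.4 CPM at sham day 1 and 83.5, 51.0, 182, 98.1 and 24.97 CPM at MI day 3, and IR day 1 ranged from 0 to 216 CPM, so IR day 1 and MI day 3 each overlapped sham day 1. Both IR day 3 plates lay above all sham day 1 plates, which was not tested with 2 plates resting on 16 Nos2 UMIs. On the log2(CPM + 10) scale Nos2 was 0.58 higher at IR day 1 than at sham day 1 (p = 0.511, adjusted p = 0.511, two-sided exact permutation test) and 0.73 higher at MI day 3 than at sham day 1 (p = 0.206, adjusted p = 0.275, same exact permutation test). Most of these plates rest on fewer than 20 Nos2 UMIs, and the lack of a call does not show equal levels.

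The endothelial-like wells with Nos2 were not of the same cluster in all groups. At sham day 1, 23 of the 24 UMIs and 80 of the 98 endothelial-like wells were in cluster 5, led by Cd300lg, Ly6c1 and Fabp4, which are genes of capillary endothelium. After MI, 100 of 102 UMIs and 52 of the 57 wells were in cluster 10, led by Plvap, Igf2, Vwf and Apln. Only 6 wells of sham day 1 were in cluster 10, with 0 UMIs of Nos2, which allows up to 92.8 CPM, against 89.2 CPM in cluster 10 after MI. At IR day 1 the 41 wells of cluster 10 held 37 UMIs and the 30 wells of cluster 5 held 7. The share of wells with Nos2 at MI day 3, 57.9%, came down to 12.2% when thinned to 1000 UMIs, the median depth being 16645 UMIs. On the same thinned scale the share was 4.00% at sham day 1, 6.31% at sham day 14, 7.14% at IR day 1, 10.1% at IR day 3 and 5.66% at IR day 14. In macrophage-like wells Nos2 had 39 UMIs in 9 of 109 wells at IR day 1, 21 of them in plate 3 and 18 in 1 well. IR day 3 had 10 UMIs in 9 of 195 wells and MI day 3 had 19 in 11 of 281, while sham macrophage-like wells had 0. Of the 29 macrophage-like wells with Nos2, 20 also held Chil3 and 0 held Retnla. The 20 wells are 69.0% of those with Nos2 and 5.97% of the 335 with Chil3, while 54.0% of all macrophage-like wells held Chil3. Deeper wells are more likely to hold both genes.

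Retnla, the second secreted product of the alternative program, was rare. Its 33 UMIs included 8 in 1 neutrophil-like well of IR day 1 plate 9 and 21 in 9 macrophage-like wells. Of the latter, 7 came from sham day 1, 1 from sham day 14, 5 from IR day 3 plate 3 and 8 from MI day 3 plates 2 and 4. At MI day 3, 6 of the 8 were in cluster 15. Of the 9 wells, 2 also held Chil3, both after MI, which is 0.597% of the macrophage-like wells with Chil3. The IR day 1 macrophage-like wells, in which Chil3 was high, held 0 Retnla UMIs among 1082920. Retnla was tested only in the fit with at least 5 wells per plate, where its adjusted p was 0.127. Its fitted fold there rests on a group at 0 and is not given as a bound.

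Summed over all wells of a plate, where the number of cells of a class and the level per cell cannot be told apart, Chil3 was highest at IR day 1 and MI day 3. It was 0, 11.8, 29.5 and 5.78 CPM at sham day 1 and 0 to 13.8 CPM at sham day 14 (7 plates), where 3 plates held 1 UMI each. It was 219, 305, 347, 801, 951, 646, 646, 763 and 501 CPM at IR day 1 (plates 1 to 9), and 22.7, 0, 49.2, 21.2, 28.6 and 32.5 CPM at IR day 3. It was 0, 2.35 and 2.59 CPM at IR day 14 and 280, 424, 383, 254 and 173 CPM at MI day 3. Neither IR day 1 nor MI day 3 overlapped a sham group, while IR day 3 overlapped both. The means were 575 CPM ± 249 (SD, n = 9) at IR day 1, 303 CPM ± 101 (SD, n = 5) at MI day 3, 25.7 CPM ± 16.1 (SD, n = 6) at IR day 3 and 11.8 CPM ± 12.8 (SD, n = 4) at sham day 1. Nos2 had 13.3, 11.8, 16.9 and 5.78 CPM at sham day 1, 0 to 22.2 CPM at sham day 14 (median 14.4), 0 to 76.0 CPM at IR day 1 (median 13.9), 0 to 8.39 CPM at IR day 3 (median 3.42), 9.92, 11.8 and 10.4 CPM at IR day 14, and 10.6, 4.63, 8.91, 11.5 and 3.04 CPM at MI day 3. Its groups overlapped throughout, except that IR day 14 lay above all plates of IR day 3. The share of macrophage-like wells per plate, whose part in these values was not tested, had medians of 6.13% at sham day 1, 1.54% at sham day 14, 23.3% at IR day 1, 32.9% at IR day 3, 0% at IR day 14 and 39.6% at MI day 3. Neutrophil-like wells had medians of 18.9% at IR day 1 and 5.71% at MI day 3. There were 0 such wells at IR day 3, at IR day 14 and at sham day 14, and 1 at sham day 1. Their part in these values was not tested either.

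**Figure D4:**
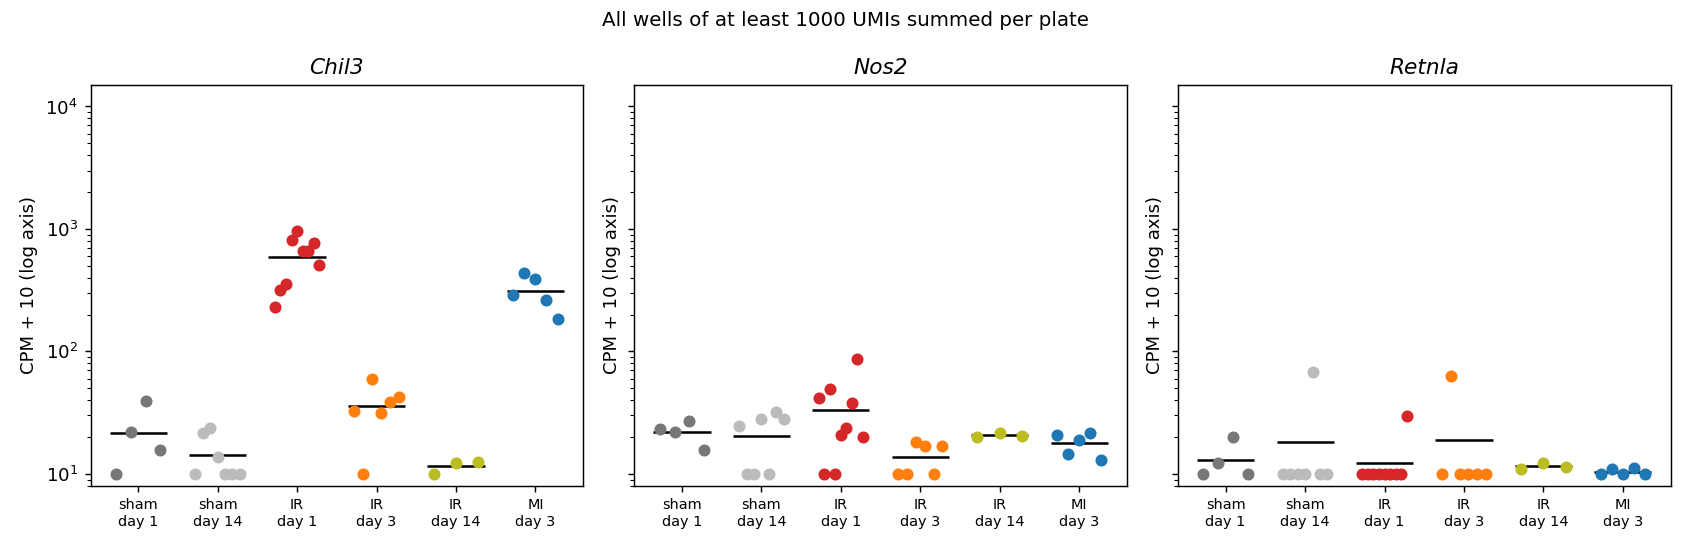
Levels of Chil3, Nos2 and Retnla over all wells of each plate, as CPM + 10 on a log axis, by group; black lines mark the mean CPM of a group. Chil3 is highest at IR day 1 and MI day 3 and at or near 0 at both day 14 groups, Nos2 reaches at most 76.0 CPM, and Retnla is at 0 in most plates.

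In the fit over all wells (9279 genes), 36.7% of genes were called at IR day 1 against sham day 1 (19.7% higher). There, Chil3 was 5.27 higher on the log2 scale (SE 0.62, adjusted p = 3.22e-08), and Nos2 was not called (0.72, SE 0.60, adjusted p = 0.361). At MI day 3 against both sham groups, 56.5% of genes were called (33.1% higher). Chil3 was 5.44 higher (SE 0.53, adjusted p = 1.04e-10), and Nos2 had a difference of -1.03 that was not called (SE 0.52, adjusted p = 0.0873). At IR day 3 against both sham groups, 30.2% of genes were called (18.7% higher). Chil3 was 2.32 higher (SE 0.61, adjusted p = 0.00362), and Nos2 was not called (-1.16, SE 0.64, adjusted p = 0.166). The median gene moved by 0.20 on the same scale at MI day 3, by 0.11 at IR day 3 and by 0.14 at IR day 14 against sham day 14. Retnla did not pass the filter on low counts in this fit. All these values are from edgeR.

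The IR day 3 comparison depended on which sham group was the control. Chil3 at IR day 3 was 1.18 higher than at sham day 1 alone (SE 0.61, adjusted p = 0.169), which is not called, and 3.47 higher than at sham day 14 alone (SE 0.90, adjusted p = 0.00426). For MI day 3 the call held against either control, with Chil3 4.29 higher than at sham day 1 (SE 0.61, adjusted p = 5.47e-07) and 6.59 higher than at sham day 14 (SE 0.77, adjusted p = 9.84e-09, edgeR).

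At day 14 Chil3 was at or near 0 after IR and after sham surgery alike. In that comparison 0.0216% of genes were called by edgeR (2 of 9279), and Chil3 and Nos2 were not among them (adjusted p = 0.953 and 0.962). With so few UMIs of Chil3, the lack of a call does not show equal levels. The change between IR and sham in Chil3 was larger at day 1 than at day 14 by 5.94 on the log2 scale (SE 1.87, adjusted p = 0.0234, edgeR interaction term), and the same term was 1.02 for Nos2 (SE 0.98, adjusted p = 0.521). For this term 1684 of 9279 genes were called.

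**Figure D5:**
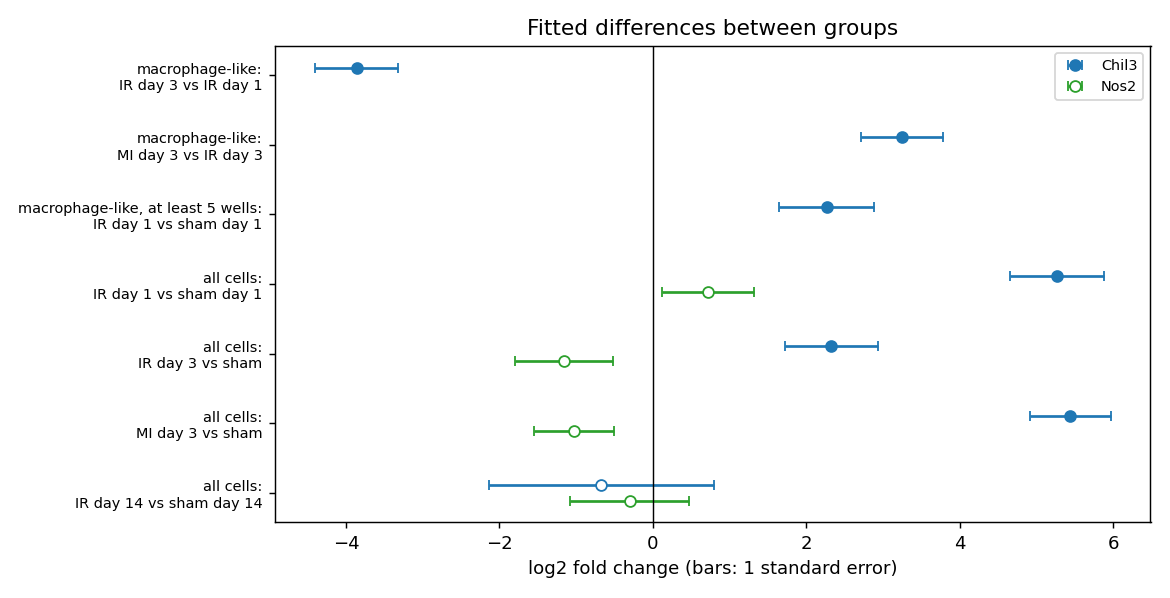
Log2 fold changes of Chil3 and Nos2 in each comparison, with bars of 1 SE and filled points at adjusted p under 0.05 (edgeR). In macrophage-like wells Chil3 is at -3.86 for IR day 3 against IR day 1 and at 3.24 for MI day 3 against IR day 3, and Nos2, tested over all wells only, is open in every comparison.

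Other genes of these pathways were counted in the macrophage-like fit. From IR day 1 to IR day 3, where 13.6% of all genes tested were lower, 6 of 11 tested genes of an alternative activation list fell and 0 rose, with a median log2 change of -1.31 against -0.03 over all genes. Among them were the transglutaminase Tgm2 (-1.31, SE 0.25, adjusted p = 0.000546), the interleukin-13 receptor chain Il13ra1 (-1.41, adjusted p = 0.00347), the transcription factor Klf4 (-1.38, adjusted p = 0.00605) and the chemokine Ccl24 (-3.25, SE 0.90, adjusted p = 0.0109), besides Egr2 (-1.48, adjusted p = 0.0431) and the interleukin-4 receptor chain Il4ra (-0.66, adjusted p = 0.0474). The mannose receptor Mrc1 (1.00, adjusted p = 0.144) and the lectin Clec10a (1.55, adjusted p = 0.133) had values in the other direction that were not called; both were named after their values had been seen. In the list of arginine and polyamine metabolism, 5 of 14 fell and 0 rose (median -0.55). These were the spermidine synthase Srm (-2.06, adjusted p = 9.15e-05), the arginine transporter Slc7a2 (-3.90, adjusted p = 0.00104), the spermine oxidase Smox (-1.61, adjusted p = 0.00197), Ass1 (-3.95, adjusted p = 0.00264), which helps remake arginine from citrulline, and Odc1 (-1.14, adjusted p = 0.0124), the enzyme that makes putrescine, the first polyamine.

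Most tested genes of a classical activation list also fell over this interval. Of the 18 genes in the list 8 were tested. Of these 7 fell and 0 rose, with a median of -2.56 against -0.03 over all genes, of which 13.6% were lower. Among the 7 were the cytokine Il1b (-3.42, SE 0.38, adjusted p = 4.31e-06), the cyclooxygenase Ptgs2 (-4.22, adjusted p = 4.22e-05) and the costimulatory molecule Cd86 (-2.57, adjusted p = 4.71e-05), besides Irf5 (-1.32, adjusted p = 0.000909), Fpr2 (-2.97, adjusted p = 0.00334) and Tnf (-2.56, adjusted p = 0.00568). Il1b was also among the leading genes of the neutrophil-like cluster. Of 5 tested genes in a list of upstream regulators, 3 fell, namely the hypoxia factor Hif1a (-2.06, SE 0.21, adjusted p = 2.83e-06), Cebpb (-2.65, adjusted p = 6.90e-05) and Tgfb1 (-2.67, adjusted p = 0.00016). Il4 was not analysed here.

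Between MI day 3 and IR day 3, where 7.39% of all genes tested were higher and 5.45% lower, the alternative activation list had 4 of 11 genes higher and 0 lower (median 0.60 against 0.04 over all genes), among them Tgm2 (2.12, SE 0.25, adjusted p = 6.38e-06) Ccl24 (2.88, adjusted p = 0.0256), Il4ra (0.75, adjusted p = 0.0378) and Klf4 (1.06, adjusted p = 0.0449). In arginine and polyamine metabolism 4 of 14 were higher and 0 lower (median 0.51): Smox (1.38, adjusted p = 0.00525), Odc1 (1.19, adjusted p = 0.0101), Srm (1.11, adjusted p = 0.0160) and the ornithine decarboxylase antizyme Oaz1 (1.37, adjusted p = 0.0197). Of the classical genes 3 of 8 were higher, namely Il1b (2.37, adjusted p = 0.000244), Ptgs2 (2.72, adjusted p = 0.00387) and Cd86 (1.17, adjusted p = 0.0266), and 1 was lower. Of the upstream genes 3 of 5 were higher: Hif1a (1.27, adjusted p = 0.00033), Tgfb1 (2.33, adjusted p = 0.000384) and Cebpb (1.49, adjusted p = 0.0129). These calls are from edgeR, and both comparisons share the IR day 3 plates.

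In the fit against sham day 1, where 0.604% of all genes were higher and 2.14% lower, 0 of 12 alternative genes, 0 of 12 arginine genes and 0 of 4 upstream genes were called by edgeR, and 1 of 11 classical genes, Ptgs2, was higher (4.15, SE 1.08, adjusted p = 0.0289). Over all wells, IR day 1 against sham day 1 had 5 of 14 alternative, 9 of 18 arginine and polyamine, 8 of 13 classical and 3 of 6 upstream genes higher, and 2 classical genes lower, beside 19.7% of all genes higher and 16.9% lower. At MI day 3 against sham 6, 12, 9 and 6 were higher and 2 alternative and 2 classical genes lower, beside 33.1% of all genes higher and 23.4% lower. At IR day 3 5, 7, 5 and 1 were higher and 1 gene each of the alternative, arginine and classical lists lower, beside 18.7% higher and 11.4% lower, so that 1 of 6 upstream genes was near the share of all genes. At IR day 14 0 genes of the 4 lists were called.

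Over the 15 plates of the macrophage-like fit, the genes whose level was most like that of Chil3 among 3503 compared were Ppp1r3b, Sdc4, Rpl27, Ddx39 and Tuba1c, with Pearson correlations from 0.946 for Ppp1r3b down to 0.934 for Tuba1c. These plates share 3 groups and differ in depth, and the correlations are a description of them.

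The limit of 1000 UMIs per well set which wells were counted. Just inside it, from 1000 to 1099 UMIs, 162 wells held 62 UMIs of Chil3 in 12 wells, 3 of Retnla in 1 and 1 of Nos2. Just outside it, from 900 to 999 UMIs, 221 wells held 42 UMIs of Chil3 in 20 wells, 2 of Nos2 in 2 and 1 of Retnla.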

How the data were processed

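The authors sorted single cells into plates, prepared SORT-seq libraries and, per the submitters' processing notes, mapped reads with BWA to GRCm38 (mm10); a version is not given in the sources used here. The deposited values are counts of UMIs per gene and well, not normalized. Mitochondrial and spike-in rows were left out, as were wells under 1000 UMIs and 20 wells above that limit that were taken as copies. Cells were clustered without the genes of the rule (scanpy 1.11.5, Leiden, resolution 1) and named from marker lists, which needed at least 3 markers. Doublets were not called. UMIs were summed per plate, with 2 sham day 14 tables averaged as 1 sample, and tested with edgeR 4.0.16 (quasi-likelihood, TMM, filterByExpr, Benjamini-Hochberg over all genes, threshold 0.05) with all groups in 1 fit. DESeq2 1.42.0, other filters and each plate left out were alternatives. In simulated data the macrophage-like fit called 69% of genes changed by 1 and 99% of those changed by 2 on the log2 scale (IR day 3 against IR day 1), and the fit over all wells 33% and 91% (IR day 1 against sham day 1). Changes were planted only in genes above a minimum mean level. Nos2 over all wells lies under that level, so these rates do not cover Nos2 or other genes of low level. P-values measure the spread between plates, which may be technical. The genes, gene lists and marker lists were chosen with earlier results of these data known. Of each list, the text names genes past the threshold, up to the 6 with the smallest adjusted p. Intervals and floors (3 counts) cover counting error only. Of the 5 genes that meet the rule 2 are not reported here, nor is 1 gene of the lists, although the counts over lists include it. The plate-sharing check of replicate numbers stands with the alternatives.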

Additional observations from a re-analysis of the deposited data

Results flagged for a closer look

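Single plates stood far from the others of their group in 4 of the 23 combinations of gene, cell class and group tested with Dixon's criterion. All 4 concern Retnla in groups whose other plates were all at 0, where a plate with any UMI meets the criterion, so the usual chance rate of about 1 in 20 does not apply. In macrophage-like wells it was 169.814 CPM in IR day 3 plate 3. Over all wells it was 58.292 CPM in sham day 14 plate 6, where it rests on 1 UMI, 19.665 CPM in IR day 1 plate 9, where 1 well holds all 8 UMIs, and 52.516 CPM in IR day 3 plate 3.

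The response of Chil3 to IR over all wells was larger at day 1 than at day 14 by 5.9375 on the log2 scale (adjusted p = 0.0234, edgeR interaction term). The same term was called for 1684 of 9279 genes. Both day 14 groups were at or near 0 for Chil3.

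Wells under 1000 UMIs, which enter no comparison of the report, also held Chil3. Its lowest MI day 3 plate there stood at 102.797 CPM, above the highest sham plate at 21.2 CPM, and the IR day 1 plates ranged from 123 to 707 CPM. IR day 3 ranged from 0 to 35.8 CPM in these wells, and all 3 plates of IR day 14 were at 0.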

How the results depend on the processing

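Of 317 values under the alternatives, 305 kept their direction and their side of the threshold. Leaving out each plate in turn, Chil3 in macrophage-like wells ran from -4.38 to -3.43 (IR day 3 against IR day 1) and from 3.02 to 3.75 (MI day 3 against IR day 3). Over all wells it ran from 4.87 to 6.34 at IR day 1, from 1.87 to 2.79 at IR day 3, from 5.07 to 5.95 at MI day 3 and from -1.47 to 0.12 at IR day 14, where leaving out IR day 14 plate 1 turned the direction (0.12). Directions reversed, and the cause was not tested, also for Chil3 at IR day 14 without sham day 14 plates 3 and 4 (0.78). Chil3 at IR day 3 was not called with sham day 1 alone as control (1.18, adjusted p = 0.169). Nos2 at MI day 3 was called at 2000 UMIs per well (-1.29, adjusted p = 0.0416). Chil3 against sham day 1 in macrophage-like wells was not called at 2000 UMIs per well (2.22, adjusted p = 0.0532) or without the deepest 5% of wells (1.88, adjusted p = 0.101). Retnla there was called with no filter on low counts (adjusted p = 0.000573).

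With the replicate number as a block (replicate block), Chil3 was -3.62 and 3.51 in macrophage-like wells and 5.22, 2.07, 5.57 and -0.54 over all wells at IR day 1, IR day 3, MI day 3 and IR day 14. Nos2 at IR day 14 turned to 0.010, and Chil3 against sham day 1 in macrophage-like wells was 2.12 (adjusted p = 0.0772). The numbers did not pair the plates: deviations of same-numbered plates had a median correlation of -0.01 over 59 pairs, 16 of them over 0.1. The block lowered the genes called in macrophage-like wells from 1397 to 665, from 733 to 197 and, against sham day 1, from 141 to 58. Other counts of genes called changed by over 1.5 times as follows. For IR day 3 against IR day 1, 832 were called with Leiden resolution 2, 918 without IR day 3 plate 4 and 805 without IR day 3 plate 7. For MI day 3 against IR day 3, 1145 were called with no filter, 1228 with Leiden resolution 2, 469 with at least 5 wells per plate, 354 without IR day 3 plate 4, 221 without IR day 3 plate 7, and 480, 456 and 456 without MI day 3 plates 2, 3 and 4. Against sham day 1, 275 were called by DESeq2, 213 with no filter, 78 without sham day 1 plate 3 and 24 without plate 4. At IR day 14, where edgeR called 2, DESeq2 called 35 and the other settings 0 to 4. Few UMIs limit Retnla, which passed the filter on low counts only in the fit with at least 5 macrophage-like wells per plate, and macrophage Nos2, which passed it in neither macrophage-like fit.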
